A study of Rattus norvegicus with 36 samples.

Results

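The genes of the major histocompatibility complex (MHC) class II antigen presentation pathway were followed in rat liver through 14 probe sets, small groups of array probes that are summarised to 1 value. They belong to 8 genes, RT1-Ba, RT1-Bb, RT1-Da, RT1-Db1, RT1-DMa, RT1-DMb, Cd74 and Ciita, of 14217 genes that had a probe set with 1 gene symbol. Every probe set whose only annotated symbol was 1 of these 8 was taken, whatever its values, which gave 14 of 20826 such probe sets. The gene list itself was chosen by earlier measured values of these arrays, in which RT1-Ba fell into separate clusters, so those clusters are given as a description and not tested.

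The rats were male Sprague Dawley, 7 weeks old at the start, and received TBPH in corn oil by gavage at 5 ml/kg for 5 days. TBPH is bis(2-ethylhexyl) tetrabromophthalate, used as a flame retardant. The left liver lobe was taken 1 day after the last dose. There were 6 arrays for corn oil vehicle and 6 for each of 5 TBPH doses, 36 in all. The doses were 0.07 mg/kg, 0.71 mg/kg, 7.06 mg/kg, 70.6 mg/kg and 706 mg/kg. The replicates are numbered but not stated to be separate animals, so every p-value measures the spread between these samples, and precision is limited by the number of arrays. Arrays are named below by group and replicate number.

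MHC class II molecules are paired alpha and beta chains that carry peptides from engulfed proteins to the cell surface for CD4+ T cells. In the rat the classical molecules are RT1.B (RT1-Ba with RT1-Bb) and RT1.D (RT1-Da with RT1-Db1). The invariant chain Cd74 guides them to endosomes and fills their groove, RT1-DM (RT1-DMa with RT1-DMb) exchanges its last fragment for peptide, and Ciita is the transactivator that switches the genes on. In liver the pathway is best known from Kupffer cells, dendritic cells and B cells, and hepatocytes at rest make little of it. RT1.B and RT1.D genes are highly polymorphic between rat strains, Sprague Dawley is an outbred stock, and a probe set reports hybridisation to the sequence it was designed on. No genotype was given with these arrays.

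Class II promoters are known for an X box, bound by the RFX complex, upstream of a Y box, bound by NF-Y, and Ciita works through the proteins on these boxes. The stretches around the Y box are shown because most of these genes moved together across arrays, as described below. RefSeq promoter sequence of build GRCr8, from 250 bases before to 50 bases after the gene start, was at hand for 6 of the 8 genes (RT1-Ba, RT1-Bb, RT1-Da, RT1-Db1, RT1-DMa and Cd74). Capitals mark TGATTGG, the Y box letters, and ACNGATG, letters of the X box. Both were chosen with these promoters in view. Each line gives 70 bases, 5′ to 3′ on the strand of the gene.
RT1-Ba: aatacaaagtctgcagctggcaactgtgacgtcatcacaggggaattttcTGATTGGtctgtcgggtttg
RT1-Bb: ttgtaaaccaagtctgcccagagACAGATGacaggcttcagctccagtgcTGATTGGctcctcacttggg
RT1-Da: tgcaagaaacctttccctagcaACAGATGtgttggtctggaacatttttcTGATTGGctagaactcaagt
RT1-Db1: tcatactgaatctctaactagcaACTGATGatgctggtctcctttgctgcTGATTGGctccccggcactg
RT1-DMa: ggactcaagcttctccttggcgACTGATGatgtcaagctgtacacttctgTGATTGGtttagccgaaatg
These stretches lie on chromosome 20, at chr20:4576962-4577031 (RT1-Ba, plus strand), chr20:4604162-4604231 (RT1-Bb, minus strand), chr20:4515314-4515383 (RT1-Da, plus strand), chr20:4560225-4560294 (RT1-Db1, minus strand) and chr20:4712382-4712451 (RT1-DMa, minus strand).

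The Y box letters began between 45 and 82 bases before the gene start in these 5 promoters. Where both motifs were found, the X box letters began 27 or 28 bases ahead of the Y box, and the motifs did not overlap. Searched on both strands, TGATTGG was in 7.06% of 33469 rat promoters of this length and ACNGATG in 10.2%. The pair, in that order on the strand of the gene and at most 40 bases apart, was in 10 promoters, or 0.0299%. RT1-Da, RT1-Db1, RT1-Bb and RT1-DMa were among them, as were RT1-Db2 and RT1-DOb, which are also class II genes but have no probe set with their symbol alone here. The other promoters with the pair were those of Ehd4, G3bp2, Hsd17b7 and Tdo2. The RT1-Ba window held TGATTGG but not ACNGATG, and the Cd74 window held neither set of letters. Other spellings of the boxes were not searched for, so a missing match is not read as a missing box. These matches describe letters in a window and are not binding data.

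The beta chain gene RT1-Bb split the 36 livers into those with a low and those with a high signal. Its probe set 1371033_at lay between 3.38 and 4.30 log2 in 22 arrays and between 5.85 and 8.45 in the other 14, with no array between. The values are the authors' log2 RMA values, so 1 unit is a doubling of signal. The spread of the residuals within groups, an SD of 1.68 log2, was higher than in 99.98% of all 31042 probe sets.

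High and low RT1-Bb livers occurred at every dose and in vehicle. The count of high arrays was 1 of 6 in vehicle, 3 at 0.07 mg/kg, 3 at 0.71 mg/kg, 2 at 7.06 mg/kg, 4 at 70.6 mg/kg and 1 at 706 mg/kg. The median of the 6 arrays was 4.16 in vehicle, 5.13 at 0.07 mg/kg, 4.77 at 0.71 mg/kg, 3.87 at 7.06 mg/kg, 6.80 at 70.6 mg/kg and 4.08 at 706 mg/kg. In vehicle the high array was replicate 1 (7.31), against 3.72 to 4.30 for the other vehicle arrays. At 706 mg/kg it was replicate 5 (8.45), the highest of all 36, against 3.67 to 4.26 for the rest of that group.

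**Figure D1:**
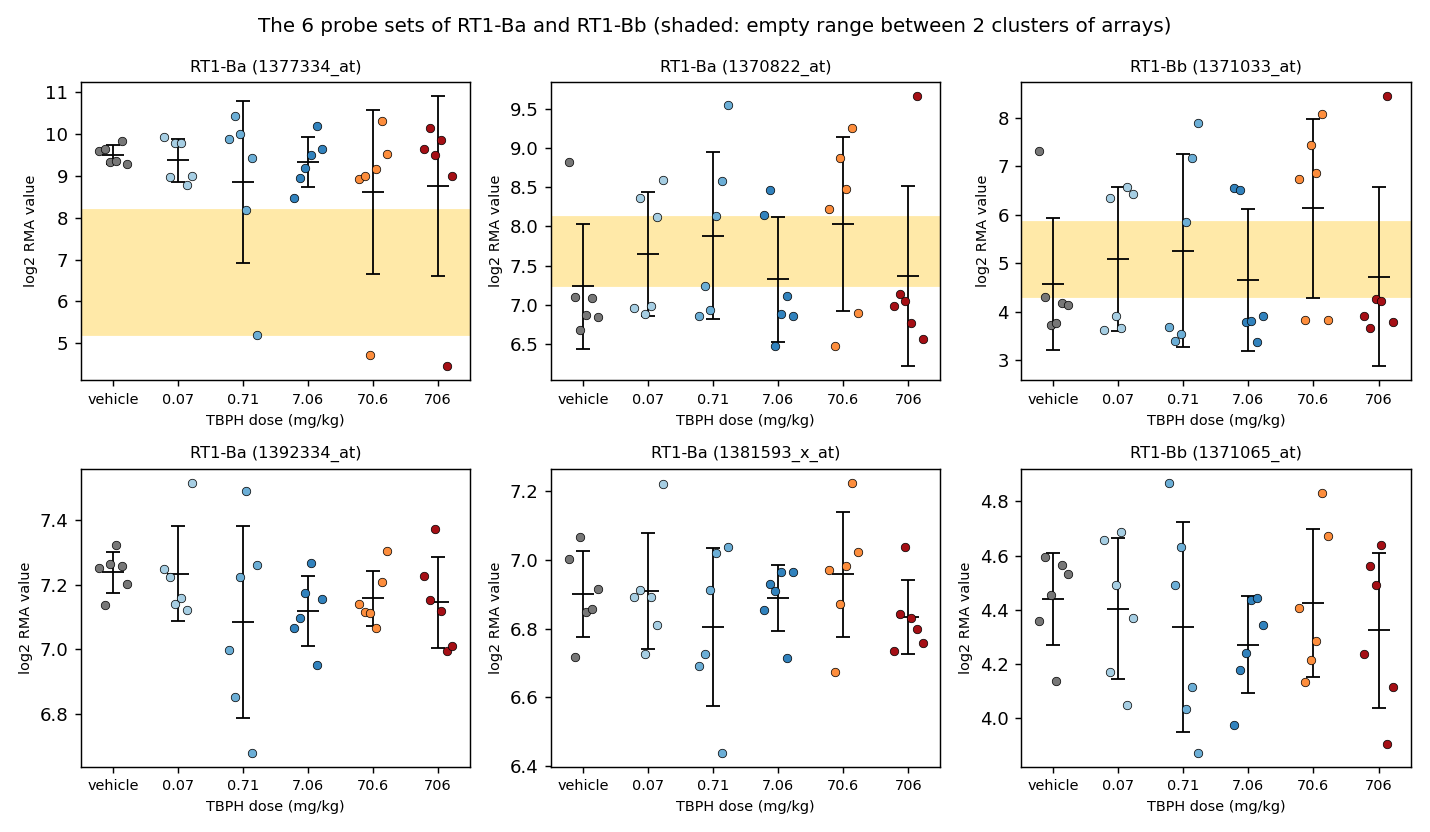
Log2 RMA value of each array for the 4 probe sets of RT1-Ba and the 2 of RT1-Bb, with TBPH dose in mg/kg from vehicle to 706 on the horizontal axis. Points are arrays (6 per group), bars are the group mean ± SD, and shading marks the empty range between clusters, from 5.20 to 8.18 for 1377334_at, from 7.24 to 8.11 for 1370822_at and from 4.30 to 5.85 for 1371033_at. The lower 3 panels have no such range.

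RT1-Ba, the alpha chain that pairs with RT1-Bb, split along the same line in 1 of its probe sets. Probe set 1370822_at lay between 6.46 and 7.24 in 22 arrays and between 8.11 and 9.67 in 14, and all 14 were the arrays that were high for RT1-Bb. The plot of RT1-Ba against RT1-Bb shows the separate groups of points in its left panel.

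A second RT1-Ba probe set, 1377334_at, split differently. It lay between 8.18 and 10.43 in 33 arrays and at 5.20 or less in only 3, with an empty range of 2.98 log2 between. The low arrays were 0.71 mg/kg replicate 6 (5.20), 70.6 mg/kg replicate 3 (4.72) and 706 mg/kg replicate 5 (4.44). These 3 arrays were all high for RT1-Bb (7.89, 7.44 and 8.45) and for 1370822_at (9.55, 8.87 and 9.67). Each ranked among the 4 highest of 36 arrays in both. On these 3 arrays 1 RT1-Ba probe set thus read near the top of its range and another at the bottom.

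The remaining RT1-Ba probe sets did not split. Probe set 1392334_at ranged from 6.68 to 7.52 and 1381593_x_at from 6.44 to 7.23, with a within-group SD of 0.16 log2 each. The suffix x marks probes that may also bind other transcripts, and RT1 genes have near-identical copies, so the values of 1381593_x_at may not be of RT1-Ba alone. The same holds for RT1-Db1 1370383_s_at, whose suffix marks probes shared by several transcripts.

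Over the whole array, 27 of 31042 probe sets (0.087%) had a gap of this kind, taken as at least 25% of the range and 0.5 log2 wide with at least 3 arrays on each side. That rule was set after the values were seen. Of the 14 class II probe sets, 3 met it: RT1-Ba 1377334_at with a gap of 49.8% of its range, RT1-Bb 1371033_at with 30.5% and RT1-Ba 1370822_at with 27.4%. Next below the limit were RT1-DMb 1370882_at with 17.7% and RT1-Db1 1370382_at with 16.3%.

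**Figure D2:**
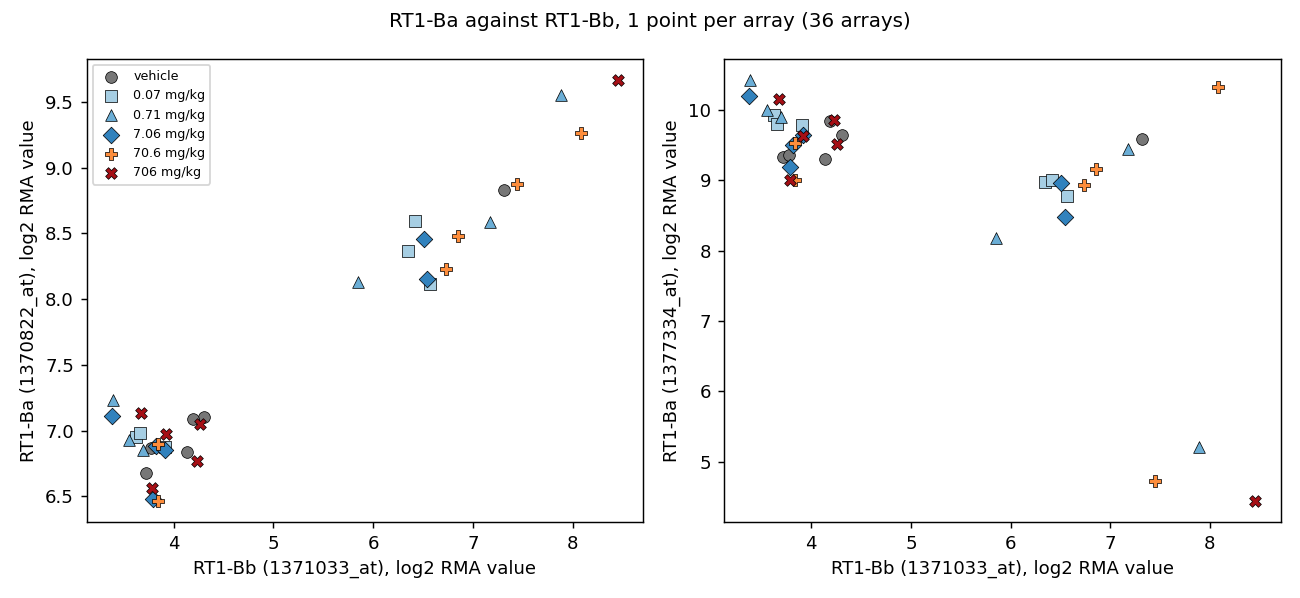
RT1-Ba against RT1-Bb (1371033_at), both in log2 RMA values, with 1 point for each of 36 arrays and a symbol for each group. In the left panel (RT1-Ba 1370822_at) 22 arrays form a low cluster and 14 a high one. In the right panel (RT1-Ba 1377334_at) 3 of those 14 arrays drop to between 4.44 and 5.20, while the rest stay between 8.18 and 10.43.

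Probe sets of 1 gene agreed only in part. Because pooled correlations would only restate the clusters, r was taken inside them. The RT1-Ba sets 1377334_at and 1370822_at went together with r = 0.94 over the 11 arrays high for both RT1-Bb and 1377334_at, and with r = 0.81 over the 22 arrays low for RT1-Bb. RT1-Ba 1392334_at and 1381593_x_at went together with r = 0.78 over 36 arrays after group means were taken off. Between these and the split sets, r lay between −0.27 and 0.15.

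For RT1-Bb, the second probe set 1371065_at ranged from 3.87 to 4.87, below the median of all probe sets (5.09). It did not follow the first, with r = 0.09 over the 14 high and 0.01 over the 22 low arrays. The RT1-Db1 sets 1370383_s_at and 1370382_at gave r = 0.74 over 36 arrays. The 2 sets of Ciita gave r = 0.55, with a Spearman rho of 0.41. These values are descriptions, since the probe sets share the same arrays.

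Some other probe sets had higher ranges in the RT1-Bb-high arrays but no empty range of their own. RT1-Db1 1370382_at lay between 3.89 and 5.93 in the 14 high arrays and between 3.30 and 4.05 in the 22 low ones. RT1-DMb lay between 7.65 and 8.87 in the high and between 7.23 and 7.77 in the low arrays. RT1-Da overlapped almost fully, from 9.04 to 11.01 in the high and from 8.98 to 10.42 in the low arrays, and so did Cd74, from 9.08 to 10.99 in the high and from 8.92 to 10.13 in the low arrays. Not all went this way. RT1-Ba 1377334_at had a lower median in the high arrays (8.95) than in the low ones (9.65). So did RT1-Bb 1371065_at (4.18 and 4.49), while Ciita 1369214_a_at had a median of 5.01 in both. These ranges and medians were sorted by a measured value and were therefore not tested.

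The RT1.D chains, the invariant chain and RT1-DM had continuous values and overlapped between all dose groups and vehicle. Cd74 is taken first. Its lowest, median and highest values were 9.20, 9.51 and 10.26 in vehicle, 9.60, 9.78 and 9.88 at 0.07 mg/kg, and 9.08, 9.997 and 10.30 at 0.71 mg/kg. They were 9.04, 9.51 and 9.98 at 7.06 mg/kg, 8.92, 9.76 and 10.99 at 70.6 mg/kg, and 8.93, 9.64 and 10.39 at 706 mg/kg. By group mean the order ran from 7.06 mg/kg (9.51) and vehicle (9.56) through 706 mg/kg (9.70), 0.07 mg/kg (9.76) and 70.6 mg/kg (9.81) to 0.71 mg/kg (9.90). The SD within a group was between 0.11 and 0.68, so neighbours in that order lay within the spread. The largest Cd74 difference from vehicle was 0.34 log2 at 0.71 mg/kg, with a 95% confidence interval from −0.15 to 0.83.

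RT1-Da, the alpha chain of RT1.D, gave the same picture. Its lowest, median and highest values were 9.16, 9.72 and 10.36 in vehicle, 9.69, 9.77 and 9.95 at 0.07 mg/kg, and 9.04, 10.09 and 10.54 at 0.71 mg/kg. They were 9.19, 9.53 and 10.13 at 7.06 mg/kg, 9.08, 9.85 and 11.01 at 70.6 mg/kg, and 8.98, 9.70 and 10.63 at 706 mg/kg. The medians differed by less than the range inside any group other than 0.07 mg/kg. RT1-Db1 1370383_s_at had medians between 8.30 at 7.06 mg/kg and 8.81 at 0.71 mg/kg, with 8.38 in vehicle.

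Of the peptide exchange pair, RT1-DMa averaged 6.41 ± 0.51 at 70.6 mg/kg and 6.09 ± 0.25 in vehicle (SD, n = 6 each). RT1-DMb averaged 7.89 ± 0.57 at 70.6 mg/kg and 7.55 ± 0.45 in vehicle (SD, n = 6 each). Most of each difference came with 1 array. Without 70.6 mg/kg replicate 5 and 0.07 mg/kg replicate 4, the difference from vehicle was 0.12 for RT1-DMa, against 0.32 with all arrays, and 0.14 for RT1-DMb, against 0.34 with all arrays.

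Ciita, the transactivator, ranged from 4.63 to 5.55 over 36 arrays in probe set 1369214_a_at and from 4.39 to 5.59 in 1379381_at. Probe set 1369214_a_at had group medians between 4.95 at 706 mg/kg and 5.06 at 0.07 mg/kg, with 4.98 in vehicle. Probe set 1379381_at had group medians between 4.71 at 70.6 mg/kg and 5.03 at 0.71 mg/kg, with 4.87 in vehicle. The highest array of both was 70.6 mg/kg replicate 5, at 5.55 and 5.59.

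**Figure D3:**
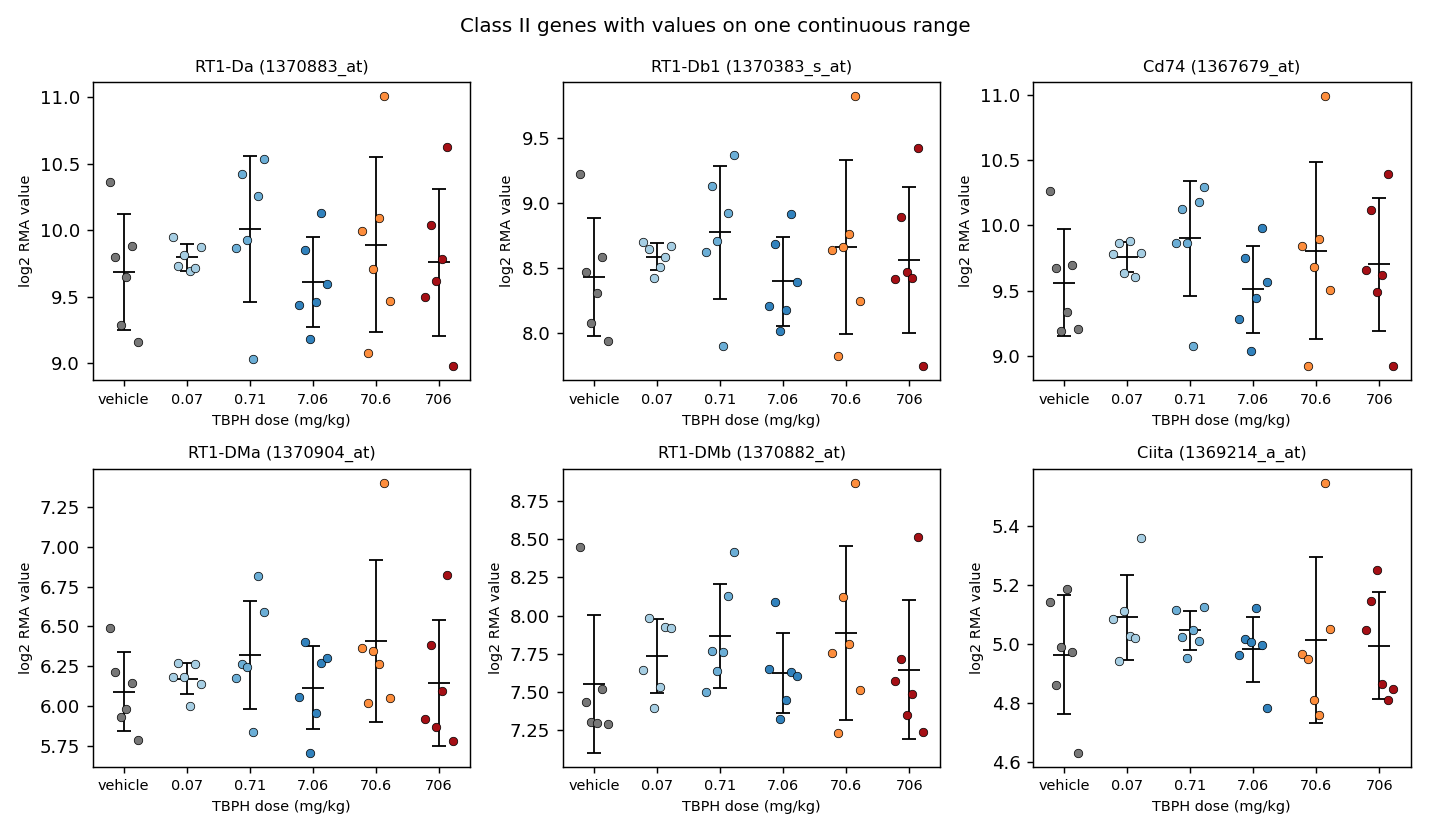
Log2 RMA value of each array for RT1-Da, RT1-Db1, Cd74, RT1-DMa, RT1-DMb and Ciita (the brightest probe set of each), with TBPH dose in mg/kg from vehicle to 706 on the horizontal axis. Points are arrays (6 per group) and bars the group mean ± SD. Every dose group overlaps vehicle in each panel, and 1 array at 70.6 mg/kg stands highest in all 6.

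No class II probe set was called different from vehicle at any dose. With limma on all 36 arrays and Benjamini-Hochberg adjustment over 31042 probe sets, 0 of 14 passed an adjusted p of 0.05 at any of the 5 doses. None had an unadjusted p under 0.05 either. Over all probe sets the percentage called was 0 at each dose, and the percentage with an unadjusted p under 0.05 was 3.07 at 0.07 mg/kg, 3.98 at 0.71 mg/kg, 3.48 at 7.06 mg/kg, 5.24 at 70.6 mg/kg and 3.48 at 706 mg/kg. The lowest adjusted p of a class II probe set was 0.921, at 70.6 mg/kg. The 5 doses share the same vehicle arrays, so their differences are not independent.

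By direction alone, 10 of 14 probe sets were higher and 4 lower than vehicle at 0.07, at 0.71 and at 70.6 mg/kg, 5 were higher and 9 lower at 7.06 mg/kg, and 8 were higher and 6 lower at 706 mg/kg. The median difference over the 14 was 0.12 log2 at 0.07 mg/kg, 0.27 at 0.71 mg/kg, −0.03 at 7.06 mg/kg, 0.22 at 70.6 mg/kg and 0.04 at 706 mg/kg, against medians over all probe sets of −0.0041 to −0.0021. No single difference passed, and the counts of directions were not tested. The probe sets share arrays, and several belong to 1 gene or to genes that moved together, so they are not independent. The share of all probe sets that were higher is not given here.

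RT1-Bb 1371033_at had the widest difference, 1.56 log2 at 70.6 mg/kg against vehicle (SE 0.89, 95% confidence interval from −0.25 to 3.37, limma adjusted p = 0.921). With means of 6.13 at 70.6 mg/kg and 4.57 in vehicle, it reflects 4 high arrays of 6 against 1 of 6. RT1-Ba 1370822_at differed by 0.80 (95% confidence interval from −0.24 to 1.85) and RT1-Ba 1377334_at by −0.90 (from −2.49 to 0.69) at the same dose. These probe sets of 1 gene had opposite signs, but without 70.6 mg/kg replicate 3, its low array, the difference of 1377334_at was −0.12. The intervals of the split probe sets are wide, while those of Cd74, RT1-Da and RT1-Db1 1370383_s_at lie between −0.59 and 0.86 log2 at every dose.

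Differences among all 6 groups and a slope over dose rank gave the same result. In limma's F test 0 of 14 class II probe sets passed, with a smallest unadjusted p of 0.177 (RT1-Db1 1370382_at), where the percentage of all probe sets called was 0 and 2.54 had an unadjusted p under 0.05. For the slope 0 of 14 passed, with a smallest unadjusted p of 0.217 (RT1-Ba 1392334_at), where the percentage of all probe sets called was 0 and 4.16 fell under an unadjusted p of 0.05. The slope of Cd74 was 0.01 log2 per dose step (SE 0.04).

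Between livers of the same dose group, by contrast, most class II genes moved together. With group means taken off, RT1-Da and RT1-Db1, the 2 chains of RT1.D, had r = 0.98 over 36 arrays, with a Spearman rho of 0.94. Cd74 followed both, with r = 0.97 for each. RT1-DMa and RT1-DMb had r = 0.86 with each other, and r = 0.89 and 0.80 with Cd74.

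All 10 pairs among these 5 genes passed, with r between 0.77 and 0.98 and permutation p-values adjusted over 35 relations between 3.89e-05 and 7e-05. The smallest unadjusted p that the 100000 permutations can give is 1e-05. Leaving out the 2 arrays farthest from the median of the first gene gave r between 0.68 and 0.97 for these pairs with group means taken again over the remaining arrays, and leaving out 70.6 mg/kg replicate 5 with 0.07 mg/kg replicate 4 gave r between 0.70 and 0.98. The members were listed as 1 pathway with earlier results known, so their coordination is a description of these livers and not an independent finding about the list.

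For Ciita the outcome depended on the probe set. Its brightest, 1369214_a_at, had r between 0.28 and 0.37 with the other 5 genes, and no pair passed (adjusted permutation p between 0.123 and 0.218). With group means left in, its pairs with RT1-Da, RT1-Db1 and Cd74 passed (r = 0.36, 0.38 and 0.38). The second set 1379381_at had r between 0.59 with Cd74 and 0.66 with RT1-DMa. With the second brightest probe set of every gene that has 1, all 5 Ciita pairs passed (adjusted permutation p between 0.000648 and 0.00664). Without 70.6 mg/kg replicate 5 and 0.07 mg/kg replicate 4, its r was 0.43 with Cd74 and 0.42 with RT1-DMa, while the r of 1369214_a_at with Cd74 was 0.07.

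**Figure D4:**
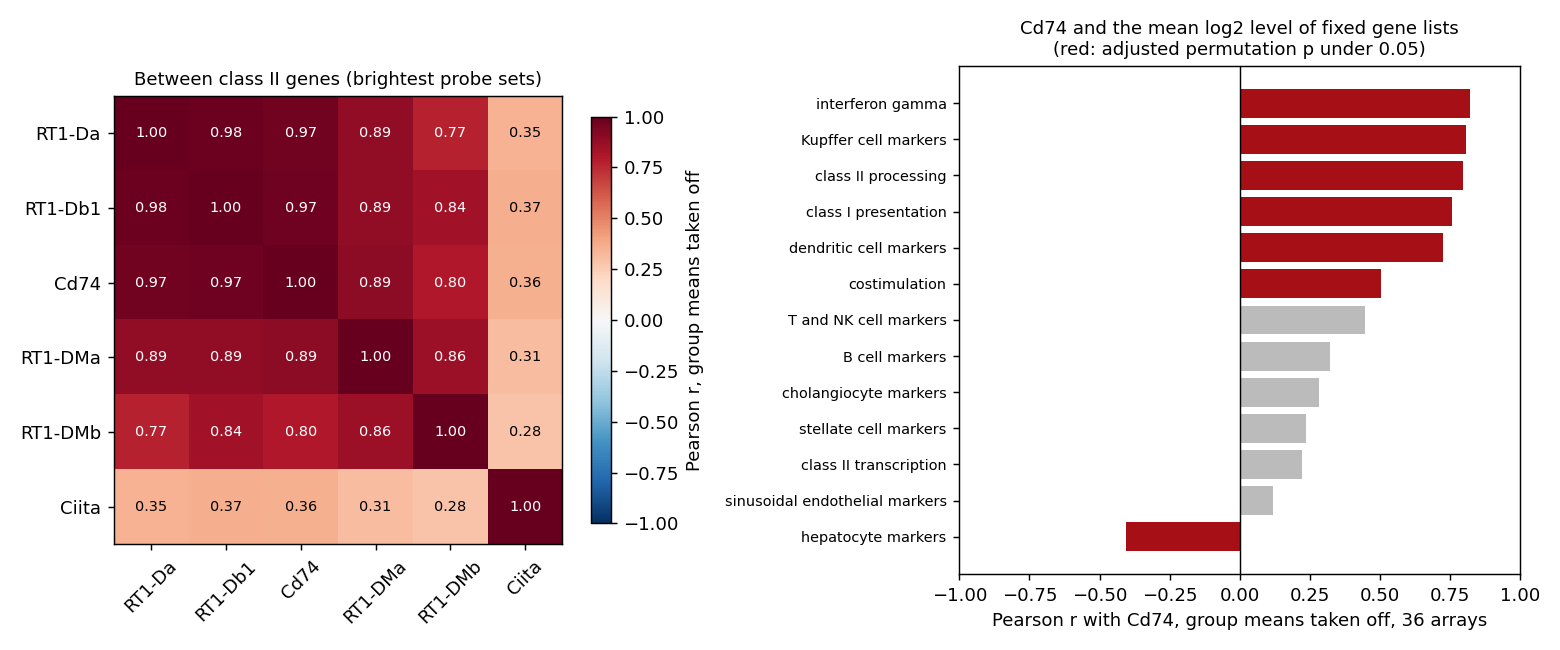
Left, Pearson r between the brightest probe sets of 6 class II genes over 36 arrays with group means taken off, printed in each cell. Right, r of Cd74 with the mean log2 level of 13 gene lists, where red bars passed an adjusted permutation p of 0.05. The 5 genes other than Ciita lie between 0.77 and 0.98, and the lists run from −0.40 for hepatocyte markers to 0.82 for the interferon gamma list.

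Inside its high cluster RT1-Bb varied with the other genes. These r describe clusters that were drawn by the values themselves, so they are given without a test. Over the 14 high arrays the r of RT1-Bb was 0.87 with RT1-Da, 0.88 with RT1-Db1, 0.82 with Cd74, 0.82 with RT1-DMa and 0.84 with RT1-DMb. With Ciita it was 0.10. Over the 22 low arrays its r with the same 6 genes lay between −0.45 and −0.26. RT1-Bb lay between 3.38 and 4.30 there, below the median of all probe sets (5.09), so these r describe a dim signal.

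RT1-Ba 1377334_at followed the RT1.D chains and Cd74 closely inside each RT1-Bb cluster. Over the 22 RT1-Bb-low arrays its r was 0.96 with RT1-Da, 0.97 with RT1-Db1 and 0.97 with Cd74. Over the 11 RT1-Bb-high arrays above its own empty range these r were 0.99, 0.99 and 0.99. Pooled over all 33 arrays, which mixes the RT1-Bb clusters, they were 0.61, 0.58 and 0.60.

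With the peptide exchange genes RT1-Ba 1377334_at had r = 0.80 (RT1-DMa) and 0.91 (RT1-DMb) over the 22 arrays, and 0.93 and 0.90 over the 11. With Ciita it had r = 0.23 over the 22 and 0.57 over the 11. With RT1-Bb it had r = −0.39 over the 22 and 0.95 over the 11. Spearman rho for that pair was −0.44 and 0.73. Without the 2 arrays farthest from the median of RT1-Ba 1377334_at, its r with RT1-Bb was −0.32 and 0.80. The r inside the clusters were computed after the pooled values were seen and carry no test.

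Several genes near RT1-Bb on chromosome 20 had a like pattern, as did genes on other chromosomes. In RefSeq order from RT1-Da to RT1-DMa there are 12 coding genes, of which 10 were on the array. Between RT1-DOb and RT1-DMb lie Tap2 and Tap1, the peptide transporter of class I presentation, and Psmb8 and Psmb9, subunits of the immunoproteasome. Over the 14 RT1-Bb-high arrays r with RT1-Bb was 0.65 for Tap2, 0.82 for Psmb8, 0.86 for Tap1 and 0.85 for Psmb9. For RT1-Ba 1377334_at, the direct neighbour, it was −0.48 over the same 14 arrays, which include its 3 low ones. Over the 22 low arrays, where RT1-Bb was dim, r with RT1-Bb lay between −0.41 and −0.22 for Tap2, Psmb8, Tap1 and Psmb9. Some genes on other chromosomes had like r inside the clusters, which does not measure the split itself. Over all 36 arrays, group means taken off, r with RT1-Bb was 0.68 for Psmb8, 0.65 for Psmb9 and 0.57 for Tap1. It was 0.60 for Cfd and 0.48 for Cd74. Whether the pattern belongs to this region was not tested. Over the 14 high and the 22 low arrays, r with RT1-Bb was 0.82 and −0.34 for Cd74 on chromosome 18. For Cfd on chromosome 7 it was 0.79 and −0.45. The neighbouring genes were looked at after the clusters were seen, and no test is given.

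A scan of 14209 genes for patterns like RT1-Bb over 36 arrays, also added after its values were seen, was led by Cltrn (r = 0.69), Psmb8 (0.68), Psmb9 (0.65), Cfd (0.60) and Crygb (0.58). The 8 class II genes were left out of this scan and of those for RT1-Ba and Cd74 below. Cltrn and Crygb were dim, with means of 2.48 and 2.82 log2 against a median of 5.09 for all probe sets. Of the 20 genes most like RT1-Bb, 5 lie on chromosome 20 (Psmb8, Psmb9, Tap1, AA926063 and Fgd2), where 2.78% of 14159 genes with a known chromosome lie. These r restate the clusters in part. Inside the low cluster of 22 arrays the r of Psmb8 was −0.30 and that of Psmb9 −0.41.

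The genes most like RT1-Ba 1377334_at over 36 arrays were Cd3d, a chain of the T cell receptor complex (r = 0.63), Sidt1 (0.62), Pim2 (0.57), Zfp648 (0.57) and Tgfbr3 (0.56). Over the 33 arrays above the empty range their r lay between 0.12 and 0.43, so much of the likeness came with the 3 low arrays. Cd3d and Zfp648 were dim, with means of 3.90 and 3.72 log2 against a median of 5.09 for all probe sets. None of the 20 most alike lay on chromosome 20, with the class II genes there left out of the scan. Inside the RT1-Bb clusters, RT1-Da and RT1-Db1 of that chromosome had r between 0.96 and 0.99 with this probe set.

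Outside the 8 class II genes, the gene most like Cd74 was Irf8, a transcription factor of macrophages and dendritic cells (r = 0.88). Next came Ctla2a (0.87), Ptpn18 (0.86), Unc93b1, which carries Toll-like receptors to endosomes (0.86), and Gngt2 (0.86). Irf8 ran from 6.04 to 7.50 log2, and its highest array was again 70.6 mg/kg replicate 5. These are the highest of 14209 values of r and carry no p.

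**Figure D5:**
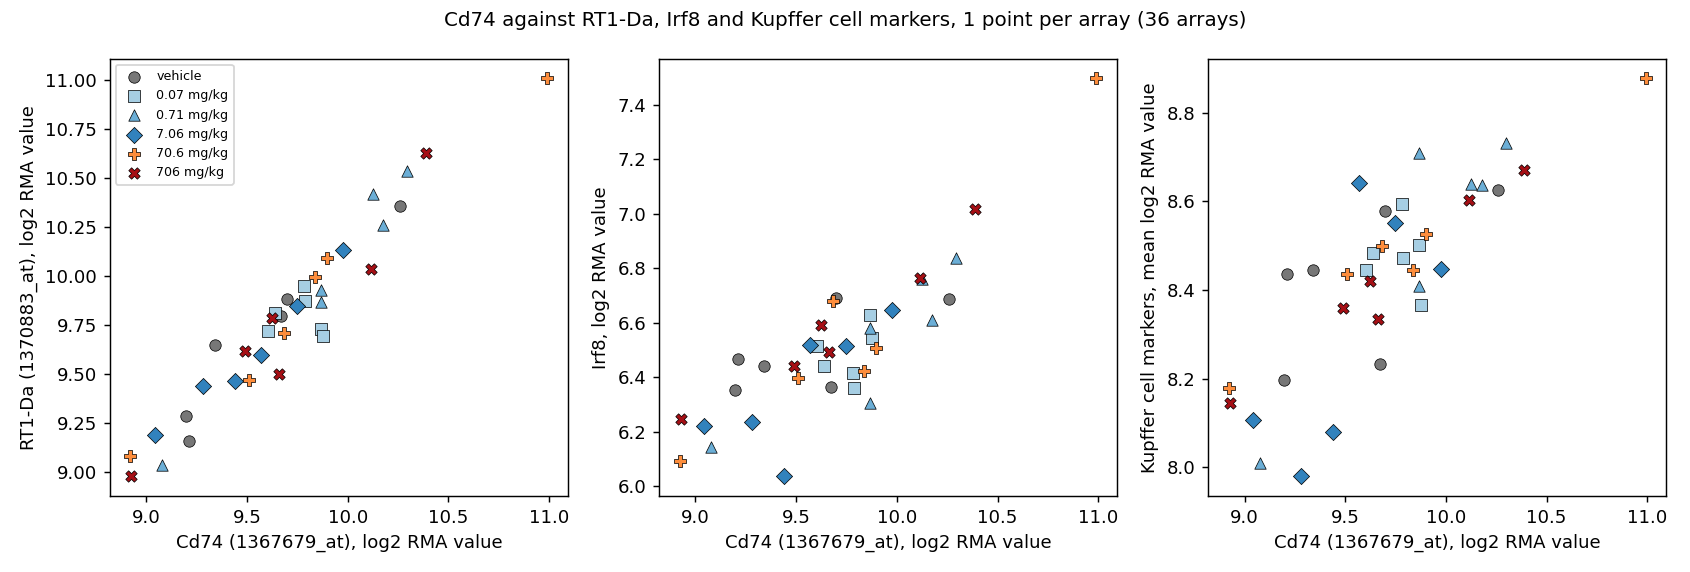
Cd74 on the horizontal axis against RT1-Da, Irf8 and the mean of 10 Kupffer cell markers, all as log2 RMA values, with 1 point for each of 36 arrays and a symbol for each group. Points of every group lie along 1 band in each panel, and the array at the upper right of each is 70.6 mg/kg replicate 5, with Cd74 at 10.99.

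Set against gene lists of the pathway and of liver cell types, Cd74 followed macrophage and interferon genes. Its r with the mean level of each list, group means taken off, was 0.82 for interferon gamma signalling and targets, 0.81 for Kupffer cell markers, 0.80 for class II processing (the cathepsins and other endosomal enzymes), 0.75 for class I presentation and 0.72 for dendritic cell markers. The permutation p adjusted over 13 lists lay between 3.25e-05 and 7.8e-05 for these 5, which also passed by Spearman rho. Costimulation genes passed by r (0.50, adjusted permutation p = 0.0164) but not by rho (0.29).

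Markers of lymphocytes and of other liver cells followed Cd74 less closely. The r was 0.45 for T and NK cell markers (adjusted permutation p = 0.0523), 0.32 for B cell markers, 0.28 for cholangiocyte markers, 0.23 for stellate cell markers and 0.12 for sinusoidal endothelial markers, and none passed. The mean of the class II transcription factors had r = 0.22 and did not pass either, although Irf8, a gene of that list, had r = 0.88. Hepatocyte markers ran the other way, with r = −0.40 (adjusted permutation p = 0.0303). Without 70.6 mg/kg replicate 5 and 0.07 mg/kg replicate 4, r was 0.21 for T and NK cell, 0.20 for B cell and 0.37 for stellate cell markers, and −0.0026 for class II transcription factors. It was 0.75 for interferon gamma, 0.79 for Kupffer cell, 0.83 for class II processing, 0.70 for class I, 0.66 for dendritic cell, 0.41 for costimulation and −0.46 for hepatocyte lists. Differences between these r were not tested. In whole liver, more cells of a type and more RNA per cell cannot be told apart.

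The range of each marker list over 36 arrays was narrower than that of Cd74 (8.92 to 10.99). Cd74 is a single probe set here, while each list is a mean of several genes. Stellate cell markers came nearest, from 6.80 to 8.35. The mean log2 level ran from 7.98 to 8.88 for Kupffer cell markers, from 5.05 to 5.54 for dendritic cell markers, from 4.49 to 5.01 for B cell markers, from 4.51 to 5.11 for T and NK cell markers and from 13.02 to 13.28 for hepatocyte markers. All 10 measured Kupffer cell markers were brighter than the median of all probe sets (5.09), while 3 of 6 B cell markers (Ms4a1, Blnk and Cr2), 4 of 7 dendritic cell markers (Flt3, Itgax, Clec9a and Clec10a) and 7 of 11 T and NK cell markers were dimmer.

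No pathway or marker gene of these lists passed in any comparison. Of 64 pathway genes 50 were measured, and of 73 marker genes 59. The 5 other genes of the class II region on the list, RT1-DOa, RT1-DOb, RT1-Db2, RT1-Ha and Btnl2, were not measured by a probe set of their own. In limma's F test over the 6 groups, 1 listed gene had an unadjusted p under 0.05, the B cell gene Ms4a1, with an adjusted p of 1.

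Within the pathway lists, the genes with the smallest F test p were Cst3 and Marchf1 (class II processing), Rfxank and Nfyb (class II transcription), Psmb9 and RT1-N3 (class I presentation), Cd86 and Cd40 (costimulation), and Cxcl9 and Socs1 (interferon gamma). Cxcl9, a chemokine that interferon gamma induces, averaged 7.17 ± 0.40 at 706 mg/kg, 7.40 ± 0.59 at 70.6 mg/kg and 6.78 ± 0.37 in vehicle (SD, n = 6 each), and its r with Cd74 was 0.84. Psmb9 averaged 8.52 ± 0.42 at 706 mg/kg, 8.85 ± 0.73 at 70.6 mg/kg and 8.28 ± 0.53 in vehicle (SD, n = 6 each), with r = 0.82. Marchf1, a ubiquitin ligase that removes class II molecules from the surface, had r = 0.64 with Cd74, and Cst3, the cathepsin inhibitor cystatin C, also 0.64. Rfxank, a subunit of the RFX complex, had r = −0.34, and the NF-Y subunit Nfyb −0.04, while Irf8 of the same list had 0.88. The lists that Cd74 followed were not uniform either. Socs1, of the interferon gamma list like Cxcl9, had r = −0.15 with Cd74. Cd40 had −0.04 and Cd86 0.58, both of the costimulation list, and RT1-N3 had 0.61.

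Among the marker lists the corresponding genes were Ms4a1 and Cd22 (B cells), Clec10a and Flt3 (dendritic cells), Adgre1 and Csf1r (Kupffer cells), Cd8b and Prf1 (T and NK cells), Stab1 and Stab2 (sinusoidal endothelium), Col3a1 and Des (stellate cells), Krt7 and Epcam (cholangiocytes), and Tdo2 and Apoa1 (hepatocytes). The macrophage receptor Csf1r had r = 0.76 with Cd74 and Adgre1 0.67, while the B cell genes Cd22 and Ms4a1 had 0.19 and 0.11. Of the T and NK cell genes Prf1 had 0.61 and Cd8b −0.07, and of the dendritic cell genes Flt3 had 0.35 and Clec10a 0.26. Stab1 and Stab2 had 0.06 and −0.17, Col3a1 and Des 0.32 and 0.25, and Krt7 and Epcam 0.27 and −0.03. For the hepatocyte genes Tdo2 and Apoa1 it was −0.19 and 0.11.

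A single array had the top of most class II values. TBPH 70.6 mg/kg replicate 5 was the highest of 36 in 8 of the 14 probe sets and second in 4. It also had the widest difference between the 3′ and 5′ control probe sets of Gapdh, 0.41 log2, a measure of RNA integrity or labelling, followed by 0.07 mg/kg replicate 4 with 0.33, and the third highest array had 0.09. The same array was highest for the Kupffer, dendritic, T and NK cell, class I, interferon gamma, costimulation and class II transcription lists. The part of RNA quality in these values was not tested beyond the values given above without these 2 arrays. TBPH 706 mg/kg replicate 5, with a control difference of −0.04, was highest in 2 probe sets and second in 5.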

How the data were processed

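Total RNA from liver was hybridised to Affymetrix 3′ expression arrays. The deposited table holds log2 values, 1 per probe set and array, made by the authors with RMA (background correction, quantile normalization, and 1 summary for each set of probes). These names, RMA and affy, come per the submitters' processing notes, which give neither version nor genome build. RMA puts all arrays on 1 distribution, so a shift shared by most genes would not be seen. Array medians lay between 5.06 and 5.14. No scan date or batch was given.

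The table has 31099 probe sets, and 57 that are array controls were dropped. Probe sets were named from the platform annotation, with 1 symbol for 20826, several for 436 and none for 9780, and all 14 of the class II genes matched current symbols. limma 3.58.1 in R 4.3.3 was fitted to the 36 arrays together, with a mean for each group and 30 residual degrees of freedom. Tests were two-sided, with Benjamini-Hochberg adjustment over all probe sets. The submitters name R/maanova for their own comparison, and it could not be run here. Correlations used the brightest probe set of each gene by its mean over all arrays, with two-sided permutation p-values (100000 permutations, within groups where group means were taken off) in Python 3.11.15 with scipy 1.17.1. Correlations of the split probe sets were taken inside clusters and are given without p-values. Their permutation p-values are nevertheless among the 35 relations over which those of the gene pairs were adjusted. The scripts were tested on simulated data. Figures used matplotlib 3.10.9.

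Same-numbered arrays of different groups did not deviate together (r between −0.41 and 0.27 over 90 pairs, median −0.02), so numbers were not taken to pair samples.

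The genes and lists were chosen with earlier results of these data known. Named were all probe sets of the 8 genes, the 2 genes of each list with the smallest F test p, and, outside the 8 genes, the 5 most like RT1-Ba and Cd74. The cluster rule, the r of RT1-Ba inside the RT1-Bb clusters, the RT1-Bb scan, the neighbouring genes and the motifs were added after seeing the data, and genes named for them fall outside that rule, as do other list members given as dim markers. Alternatives were a fit of 1 dose and vehicle alone, a replicate block, variance moderation, array weights, dim probe sets, normalization, the probe set of a gene, the dose scale, the threshold, the 2 arrays of high control difference and each array left out.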

Additional observations from a re-analysis of the deposited data

Results flagged for a closer look

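A sample was picked out where it stood apart from the other 5 of its group by more of the group's range than Dixon's 95% critical value for 6 samples allows. Chance flags about 1 in 20 groups. Of 84 groups of the 14 probe sets, 15 (17.9%) held such a sample. Some of these were in the split probe sets, where an array alone in its cluster is picked out by the split itself. The same share over all probe sets is not given here, so 17.9% is not read as an excess in class II genes. The probe sets share arrays, so the flagged groups are not independent, and no explanation was tested.

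Vehicle replicate 1 stood above its group in RT1-Ba 1370822_at (8.83), RT1-Bb 1371033_at (7.31), RT1-Db1 1370382_at (5.02) and RT1-DMb (8.45). TBPH 706 mg/kg replicate 5 stood above its group in RT1-Ba 1370822_at (9.67), RT1-Bb 1371033_at (8.45) and RT1-DMb (8.52), and below it in RT1-Ba 1377334_at (4.44), where the nearest other array was at 8.996. Each is the only RT1-Bb-high array of its group. TBPH 70.6 mg/kg replicate 3 stood below its group in RT1-Ba 1377334_at (4.72).

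TBPH 70.6 mg/kg replicate 5, the array with the widest Gapdh control difference, stood above its group in RT1-DMa (7.40) and in both Ciita probe sets (5.55 for 1369214_a_at and 5.59 for 1379381_at). The others were RT1-Ba 1392334_at at 0.07 mg/kg replicate 6 (7.52, above), RT1-Ba 1381593_x_at at 706 mg/kg replicate 3 (7.04, above) and Cd74 at 0.71 mg/kg replicate 4 (9.08, below).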

How the results depend on the processing

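The count of class II probe sets called was 0 in each comparison under every alternative run, including an adjusted p of 0.10, each array left out (range 0 to 0) and the fit with the replicate number as a replicate block (0 called at every dose), which changed no call. The median r over 15 pairs of genes was 0.84 and lay between 0.74 and 0.84 under the alternatives. With the second brightest probe set of the gene in place of the brightest, the difference at 70.6 mg/kg against vehicle was 0.80 for RT1-Ba (−0.90 in the brightest) and −0.0164 for RT1-Bb (1.56 in the brightest), and that of Ciita at 0.07 mg/kg was −0.0158 (0.13 in the brightest), none of them called. Without the 2 arrays of high control difference the r of Ciita was −0.0918 with RT1-DMa and −0.027 with RT1-DMb, and without the 2 arrays farthest from the median of RT1-DMb, group means taken again, it was −0.175 with RT1-DMb (−0.0889 with the means of all arrays kept). The r of Ciita with RT1-Da, RT1-Db1 and Cd74 passed when group means were not taken off (0.36, 0.38 and 0.38), and all 5 Ciita pairs passed with the second brightest probe sets (r between 0.50 and 0.66); the cause was not tested. Of the 14 differences examined, the largest of each probe set, leaving out 1 array turned none round. It moved RT1-Ba 1377334_at at 70.6 mg/kg between −1.24 and −0.12 log2, RT1-Bb 1371033_at between 1.17 and 2.11, and RT1-DMa between 0.12 and 0.40. The dose scale without vehicle was run for the slope only. Dim probe sets (5 of the 14, including both of RT1-Bb and both of Ciita) have less signal over background.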
